A study of Homo sapiens with 14 samples.

Results

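SCC23 is an established cell line of head and neck squamous cell carcinoma (HNSCC). The 31 genes described here make cholesterol and fatty acids, or control that synthesis, and were taken by name from the gene counts of 14 RNA-seq libraries of SCC23 cells. They are 31 of 59471 gene names counted. Of the 31 genes, 21 belong to the sterol arm, 8 to the fatty acid arm, and 2 (ACLY and ACSS2) supply acetyl-CoA to both.

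KMT2D-KO cells were made by transfecting SCC23 with the Cas9 plasmid pSpCas9(BB)-2A-GFP carrying 1 of 2 guide RNAs against KMT2D, which gave the lines KO1 and KO2. KMT2D-WT cells had received the same plasmid with a guide against LacZ. The lines grew from sorted GFP-positive cells, and no cloning of single cells is described. Cells were kept in high glucose DMEM (+Glc) or deprived of glucose for 6 h (-Glc), and polyA RNA was sequenced in 2 experiments. In each glucose condition, experiment 1 holds 1 KMT2D-WT library and 1 library each of KO1 and KO2, and experiment 2 holds 2 KMT2D-WT libraries (WT1 and WT2) and 1 each of KO1 and KO2. Levels are CPM, the counts of a gene relative to the TMM-scaled library total. They are always given in the order experiment 1, WT1 and WT2 for KMT2D-WT cells, and in the order KO1 and KO2 of experiment 1, then KO1 and KO2 of experiment 2, for KMT2D-KO cells.

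Cholesterol is built from acetyl-CoA through mevalonate, the isoprenoid diphosphates, squalene and lanosterol. Fatty acids are built from the same acetyl-CoA after its carboxylation to malonyl-CoA, and are then elongated and desaturated. Both arms are switched on by sterol regulatory element binding proteins (SREBPs), which are held in the endoplasmic reticulum by INSIG proteins while sterols are plentiful. SREBF2 encodes the form that mainly drives sterol genes, and SREBF1 the form that mainly drives fatty acid genes. SREBPs are weak activators on their own and usually act at promoters beside NF-Y, which binds CCAAT, and Sp1, which binds GGGCGG.

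The promoter sequences of a few members show these elements. They are RefSeq sequences of build GRCh38.p14, and the counted annotation (Ensembl 102) is also on GRCh38. They lie upstream of the transcription start and outside the exons of the counted annotation, except for the 30 bases of SREBF2, which lie in an exon of SREBF2-AS1, an antisense transcript. They were chosen after the motif matches were known, INSIG1 and HMGCS1 because they moved in opposite directions in KMT2D-KO cells, MSMO1 because it holds 4 CCAAT boxes, SCD for the fatty acid arm, and SREBF2 because it was the only member with a match to the sterol regulatory element. Capitals mark CCAAT boxes (CCAAT, or ATTGG on the other strand) and, in SREBF2, the sterol regulatory element.
INSIG1 (chr7:155297643-155297775, plus strand): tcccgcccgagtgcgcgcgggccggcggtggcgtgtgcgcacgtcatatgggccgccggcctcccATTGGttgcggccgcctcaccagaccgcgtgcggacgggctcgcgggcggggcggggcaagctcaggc
HMGCS1 (chr5:43313513-43313647, minus strand): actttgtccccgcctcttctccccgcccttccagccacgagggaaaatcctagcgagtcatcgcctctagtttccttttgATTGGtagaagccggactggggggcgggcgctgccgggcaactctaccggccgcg
MSMO1 (chr4:165327434-165327639, plus strand): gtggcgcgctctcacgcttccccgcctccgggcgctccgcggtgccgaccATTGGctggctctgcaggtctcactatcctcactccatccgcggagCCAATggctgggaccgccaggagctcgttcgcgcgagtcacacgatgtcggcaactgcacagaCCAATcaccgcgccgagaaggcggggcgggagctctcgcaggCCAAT
SCD (chr10:100346998-100347203, plus strand): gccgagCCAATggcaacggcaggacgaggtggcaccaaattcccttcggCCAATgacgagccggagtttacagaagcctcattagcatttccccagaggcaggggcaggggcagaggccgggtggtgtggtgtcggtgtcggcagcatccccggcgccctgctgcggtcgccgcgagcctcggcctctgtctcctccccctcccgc
SREBF2 (chr22:41832962-41832991, plus strand): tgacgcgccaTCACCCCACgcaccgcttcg

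Promoters were in the reference table for 27 of the 31 members, 18 of the sterol arm, 7 of the fatty acid arm and both acetyl-CoA genes. In the 250 bases before the start, searched on both strands, 16 of the 18 sterol genes and 2 of the 7 fatty acid genes (ACACA and SCD) had a CCAAT box in at least 1 of their promoters. Counted by promoter, since some genes have several, 24 of 39 member promoters (61.5%) held CCAAT, against 32% of 35116 promoters in the table. The Sp1 box GGGCGG was in 34 of 39 (87.2%) against 42.6%. The strict sterol regulatory element TCACNCCAC was in 1 of 39 against 0.883%, and the E-box CACGTG in 3 of 39 against 6.34%. CCAAT is contained in no other motif searched. These are letter matches in a short window and not measured binding sites.

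Per kilobase of exon, the 31 genes spanned a wide range of levels. The mean over the 14 libraries was highest for DHCR7, the last enzyme of the route through 7-dehydrocholesterol, at 51.4 CPM per kb, followed by ACLY at 50.96 and FASN at 48.9. These 3 overlapped, with ranges over the libraries of 38.4 to 76.7 for DHCR7, 44.8 to 61.1 for ACLY and 28.4 to 65.2 for FASN. EBP came next at 31.9 and NSDHL at 27.7. TM7SF2, 1 of the sterol reductases, was lowest at 1.62, beside HSD17B7 at 1.75 and LPIN1 at 1.79. The smallest count of any member in any library was 61, for TM7SF2. Several genes are counted over only part of their exons, because reads lying on the exons of 2 genes were given to neither. The exons shared with other annotated genes made up 84.5% of CYP51A1, 37.7% of HMGCS1, 36.4% of EBP and 22.2% of ACAT2, so the levels of these genes are understated. FADS1 and FADS2 share 490 exonic bases on opposite strands, and the counting did not use strand.

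Total counts were 15669154 to 62968057 per library. The 4 +Glc libraries of experiment 2 were counted from read pairs with each mate as a read. Even numbers made up 67.4% to 70.6% of the gene counts between 1 and 10 there, and 37.4% to 42.7% elsewhere. Glucose and counting method therefore cannot be told apart in experiment 2. TXNIP, a gene that follows glucose, was between 44.9 and 137 CPM in the 7 +Glc libraries and between 3.20 and 9.72 CPM in the 7 -Glc libraries. KMT2D itself was at 279, 266 and 271 CPM in KMT2D-WT and 182, 323, 184 and 373 CPM in KMT2D-KO cells with glucose, and at 239, 233 and 231 and 19.9, 190.2, 152 and 145 CPM without, so the KO2 libraries with glucose were above KMT2D-WT cells. An edited gene may still be transcribed, and counts over the whole gene do not show whether its protein is lost. For the KMT2D-KO SCC23 cells, the paper reports mutations by sequencing and loss of the protein by western blot. Among epithelial markers, EPCAM was at 231 CPM or more and KRT14 at 26.5 CPM or more in each library. KRT6A was at 1.13 CPM or less and at 0 in 3 libraries. PTPRC, CD3E and PECAM1, markers of blood and endothelial cells, were at 0.255 CPM or less. Some markers moved with the genotype. KRT14 was at 185 to 244 CPM in KMT2D-WT and 26.5 to 137 CPM in KMT2D-KO cells with glucose, with no overlap. Without glucose KRT14 was at 184 to 229 and 134 to 253 CPM, and the genotypes overlapped. COL1A1, a fibroblast gene, was at 5.00 to 6.92 CPM in KMT2D-WT and 11.5 to 15.98 CPM in KMT2D-KO cells with glucose, and at 3.03 to 5.53 and 7.20 to 13.9 CPM without, so the genotypes did not overlap. COL3A1 was at 5.26 CPM or less and at 0 in 9 libraries. The 5 markers of other cell types summed to 5.13 to 6.96 CPM in KMT2D-WT and 12.4 to 20.4 CPM in KMT2D-KO cells with glucose, and to 3.10 to 5.53 and 7.20 to 13.9 CPM without. The 8 epithelial markers summed to 1129 to 1778 and 922 to 1814 CPM with glucose, and to 1379.5 to 1675 and 1619 to 2201 CPM without. Among them CDH1 was at 58.6 to 62.7 CPM in KMT2D-WT and 61.1 to 226 CPM in KMT2D-KO cells without glucose, and KRT5 at 19.4 to 22.9 and 15.4 to 225 CPM. Their part in the results was not tested.

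2 pairs of libraries stand apart from the others. WT1 and WT2 of experiment 2 without glucose differed by a chi-square of 1.71 per gene, where sampling noise alone gives about 1, and KO1 and KO2 of the same experiment by 1.78. The other 4 pairs of the same genotype, glucose condition and experiment differed by 25.9 to 83.0. Over 19 genes that separate the lines, both KMT2D-KO libraries of this experiment without glucose lay near KO2 (mean distance 0.42 and 0.447 on the log2 scale) and far from KO1 (3.96 and 3.94), so 1 of them does not match its label KO1. Over the 31 members, their KO1 to KO2 ratio was between 0.834 and 1.17, against 0.585 to 2.76 in experiment 1. The pairs were kept as separate libraries, and the counts that use them are also given with the pairs summed. In these bulk libraries a change in the mix of cells and a change in RNA per cell cannot be told apart. No label says that libraries of 1 line came from separate cultures, so p-values measure the spread between these libraries.

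**Figure D1:**
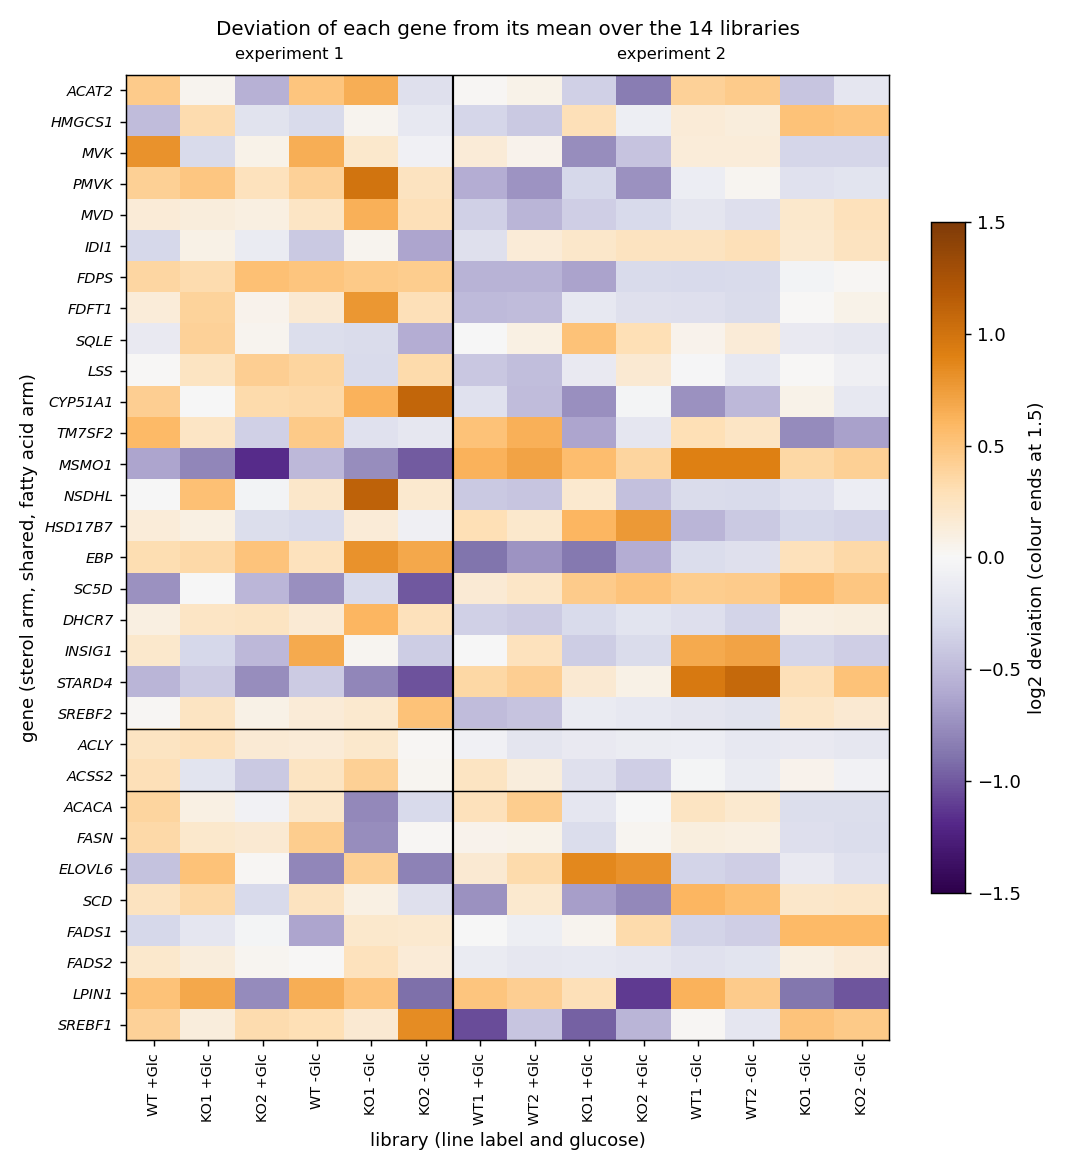
Log2 deviation of each of the 31 genes (rows, in the order sterol arm, shared acetyl-CoA genes, fatty acid arm) from its mean over the 14 libraries (columns, experiment 1 left and experiment 2 right of the line). MSMO1, SC5D and STARD4 were higher in experiment 2 in each group, and LPIN1 is low in both KO2 libraries with glucose and in 3 of the 4 KMT2D-KO libraries without.

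The 2 experiments differed in many of these genes. MSMO1, SC5D and STARD4 were more than 1.5-fold higher in experiment 2 in each of the 4 groups. STARD4, which carries sterols between membranes, was at 11.4, 21.6 and 22.6 CPM in KMT2D-WT cells with glucose and at 12.6, 32.9 and 35.6 CPM without. MSMO1, which oxidises the C4 methyl groups of sterol intermediates, was at 12.2, 29.8 and 31.3 CPM with glucose and 13.2, 36.1 and 36.1 CPM without. In both genes the library of experiment 1 lies below both libraries of experiment 2. Of the 31 genes, 7 were higher and 17 lower in experiment 2 in each group, and both sets hold sterol genes. The share of all genes that moved so is not given, so these counts are no result about the members. Over 14268 genes the difference between experiments had a correlation between KMT2D-WT and KMT2D-KO cells (Pearson, across genes, which are not independent; 0.947 with glucose and 0.871 without), and experiment was kept in each fit as a covariate.

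The first comparison asks which of these genes depend on KMT2D in cells with glucose. At an adjusted p under 0.05, 5 of the 31 genes were higher in KMT2D-KO cells (HMGCS1, SQLE, LSS, SREBF2 and ELOVL6) and 6 were lower (ACSS2, ACAT2, MVK, TM7SF2, INSIG1 and ACACA). Over all 20423 genes tested, 13% were higher and 11.7% lower, so the shares among the members, 5 and 6 of 31, lie near the background. The median log2 fold change was 0.11 over the sterol arm and -0.12 over the fatty acid arm, against 0.022 over all genes. Changes were small, and 4 of the 11 called genes (ACAT2, MVK, TM7SF2 and ELOVL6) reached 1.5-fold. The calls rest on the KMT2D-WT libraries: without that of experiment 1 the number called was 1, without WT1 it was 5, and without WT2 it was 4. With experiment left out of the fit, none of the 31 genes was called by edgeR, with 8 at an unadjusted p under 0.05, and experiment 1 alone gave none (4 unadjusted) and experiment 2 alone 3.

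In cells without glucose, 8 of the 31 genes were higher in KMT2D-KO cells (HMGCS1, MVD, CYP51A1, EBP, DHCR7, SREBF2, FADS1 and FADS2) and 9 were lower (MVK, TM7SF2, MSMO1, INSIG1, STARD4, ACACA, FASN, SCD and LPIN1). Of all 16782 genes tested, 25.9% were higher and 24.9% lower, again near the members' shares. The sterol arm had a median of 0.085 and the fatty acid arm of -0.049, against 0.0029 over all genes, so neither arm moved as a block. With the close pairs summed, 2 of the 17 calls were left, INSIG1 (lower) and FADS1 (higher). Without 1 library at a time, the count was 9, 8 and 9 for the KMT2D-WT libraries of experiment 1, WT1 and WT2, and 8 and 9 for KO1 and KO2 of experiment 2, while it was 25 and 18 without KO1 and KO2 of experiment 1. Without both KMT2D-KO libraries of experiment 2, an alternative chosen after the data were seen, none was called and 6 had an unadjusted p under 0.05. With experiment left out of the fit 4 were called, and experiment 1 alone gave none, also at an unadjusted p. Experiment 2 alone, which rests on both close pairs, called 24, with the 17 among them. For the alternative fits, here and elsewhere, the shares of all genes at an adjusted or unadjusted p are not given. Their counts are therefore no result about the members.

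With library-size scaling in place of TMM, the median of all genes fell to -0.25 in the comparison without glucose, because the TMM factors of the 4 KMT2D-KO libraries without glucose were 0.863 to 0.893 and those of the other libraries 1.006 to 1.09. The split of the called members then became 2 higher and 12 lower, and with glucose it became 2 higher and 6 lower. Without glucose the sterol arm's median turned to -0.17 under library-size scaling and the fatty acid arm's to 0.0029 under RLE scaling. Relative to the median of all genes, the sterol arm stayed slightly above and the fatty acid arm slightly below in both glucose conditions under each scaling.

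The same 6 genes were called in the same direction with and without glucose, 2 higher (HMGCS1 and SREBF2) and 4 lower (MVK, TM7SF2, INSIG1 and ACACA). That is 6 of the 11 genes called with glucose and 6 of the 17 called without, and none was called in opposite directions. Over the 16460 genes tested in both conditions, 3490 were called in the same direction, which is 74.1% of those called with glucose and 41.4% of those called without, and 77 were called in opposite directions. The members' shares lie below these, so the overlap is no result about them. The libraries of the 2 glucose conditions are separate, but both conditions use the same lines.

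**Figure D2:**
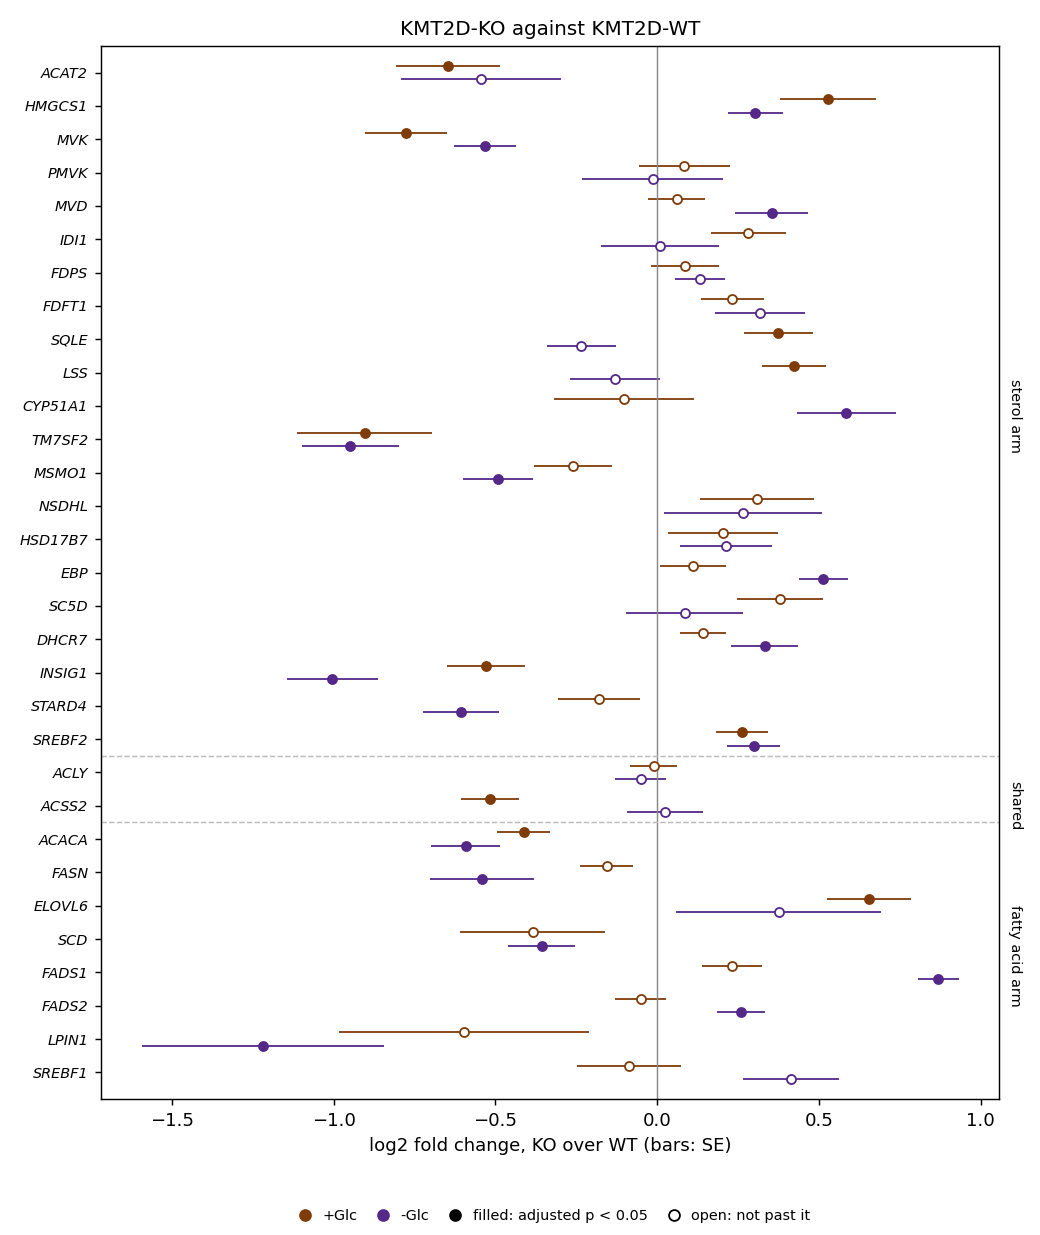
Log2 fold change of KMT2D-KO over KMT2D-WT cells for each of the 31 genes with glucose (brown) and without (purple), with bars of 1 SE, from fits with experiment as a covariate. Filled points passed the adjusted p threshold of 0.05, and dashed lines part the sterol arm, the 2 acetyl-CoA genes and the fatty acid arm; INSIG1, TM7SF2, MVK and ACACA are filled left of 0 in both conditions, and HMGCS1 and SREBF2 right of 0.

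Among the regulators, INSIG1 had the clearest change. INSIG1 (chromosome 7, 155297776 to 155310235) retains the SREBPs in the endoplasmic reticulum and is itself a target of them. With glucose it was at 16.9, 14.6 and 17.8 CPM in KMT2D-WT and 11.7, 10.2, 11.2 and 12.1 CPM in KMT2D-KO cells. In glucose-deprived cells it was at 23.8, 23.8 and 24.4 CPM in KMT2D-WT and 14.98, 11.2, 11.7 and 11.3 CPM in KMT2D-KO cells. Each KMT2D-KO library lay below each KMT2D-WT library in both conditions, and the 3 KMT2D-WT libraries without glucose lay above those with glucose. INSIG1 was lower in KMT2D-KO cells with glucose (log2 fold change -0.53, SE 0.12, adjusted p = 0.0125) and without (log2 fold change -1.004, SE 0.14, adjusted p = 0.00126). Without glucose the difference was -0.86 in experiment 1 alone and -1.12 in experiment 2 alone.

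SREBF2 moved the other way. It was at 109.5, 77.1 and 79.5 CPM in KMT2D-WT and 127, 114, 99.5 and 97.6 CPM in KMT2D-KO cells with glucose (log2 fold change 0.26, SE 0.08, adjusted p = 0.0418). Without glucose it was at 120.0, 95.5 and 93.9 and 123, 156, 126 and 122 CPM (log2 fold change 0.30, SE 0.081, adjusted p = 0.0199). The groups separate within each experiment with glucose but overlap across both. Without glucose each KMT2D-KO library lay above each KMT2D-WT library. The call was lost in 6 of the 7 fits that left out 1 library with glucose and in 5 of 7 without, and under library-size scaling the difference without glucose was 0.046. SREBF1 was not called in either condition, with 94.8, 34.3 and 52.97 CPM in KMT2D-WT and 77.6, 89.5, 36.2 and 49.2 CPM in KMT2D-KO cells with glucose (log2 fold change -0.086, SE 0.16, adjusted p = 0.748), and 88.4, 72.2 and 63.5 and 80.4, 128, 102 and 98.98 CPM without (log2 fold change 0.41, SE 0.15, adjusted p = 0.053). Its 2 KMT2D-WT libraries of experiment 2 with glucose were far below that of experiment 1. STARD4 was lower in KMT2D-KO cells without glucose, at 9.46, 7.96, 20.5 and 24.2 CPM against the KMT2D-WT levels given above (log2 fold change -0.61, SE 0.12, adjusted p = 0.00506). Within each experiment its KMT2D-KO libraries lay below the KMT2D-WT libraries. With glucose it was at 12.6, 9.68, 18.9 and 17.7 CPM in KMT2D-KO cells and was not called (log2 fold change -0.18, SE 0.13, adjusted p = 0.352).

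**Figure D3:**
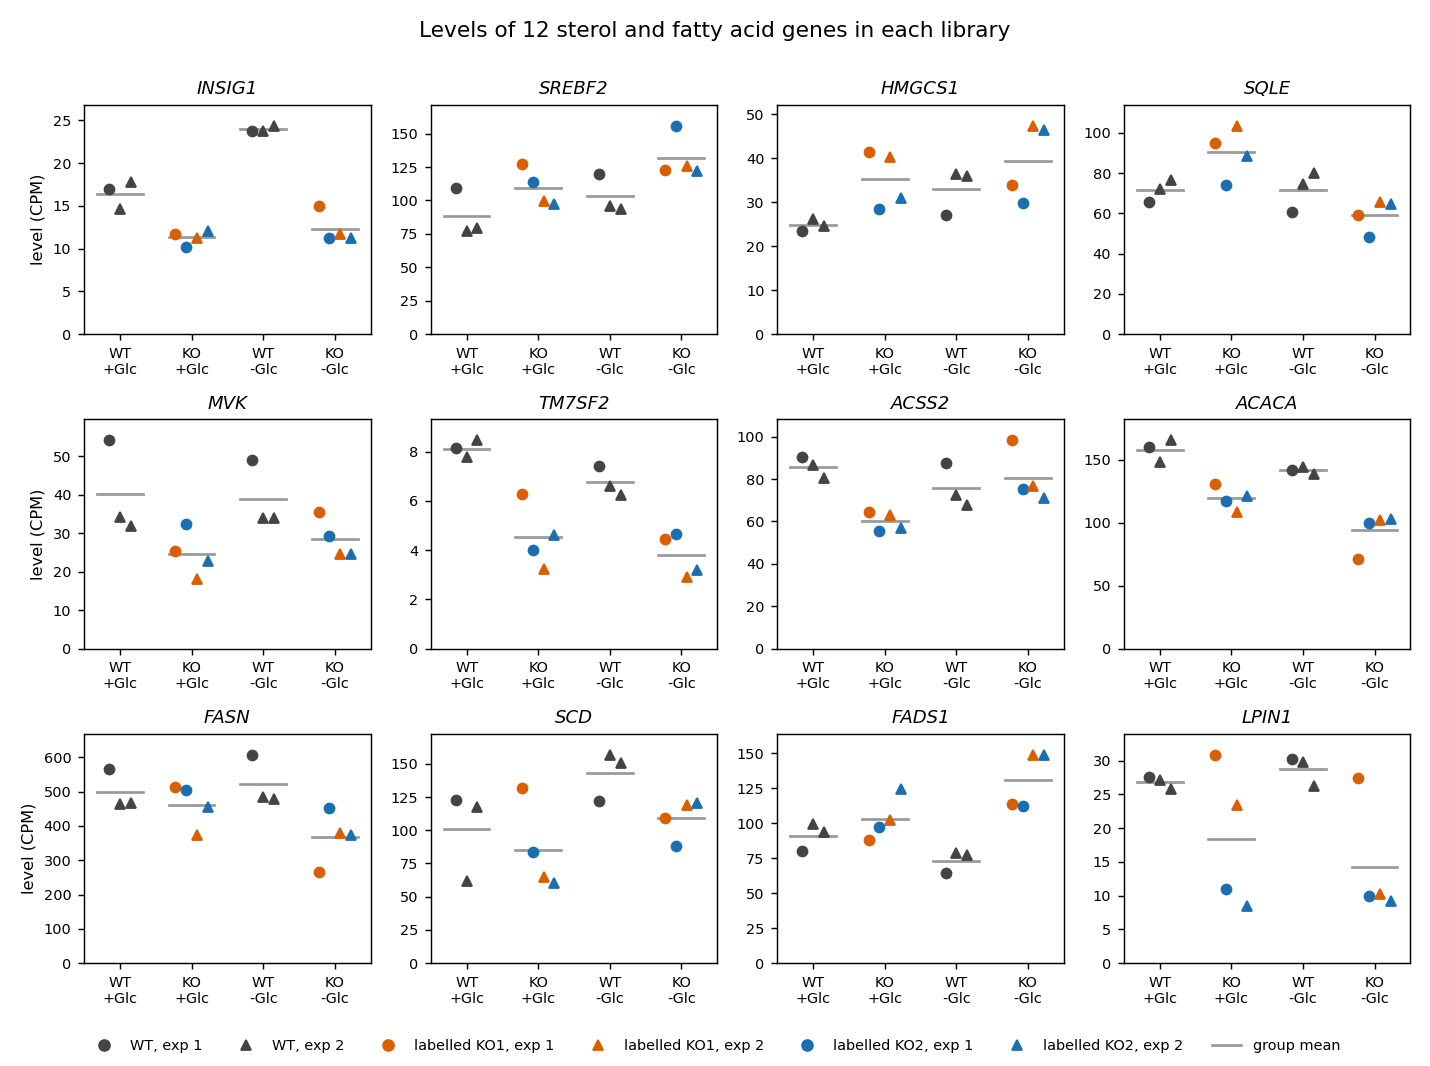
Levels in CPM of 12 of the genes in each library (y axis from 0), by genotype and glucose, with circles for experiment 1, triangles for experiment 2, colours for the labelled line and grey bars for group means. INSIG1, TM7SF2 and ACACA show no overlap between KMT2D-WT and KMT2D-KO libraries within a glucose condition. HMGCS1 and ACSS2 part the genotypes with glucose only, and SREBF2, FASN, SCD and FADS1 without glucose only. LPIN1 falls into 2 levels within KMT2D-KO cells.

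Of the 7 genes that lead from acetyl-CoA to farnesyl diphosphate, HMGCS1 rose and MVK fell in KMT2D-KO cells in both conditions. HMGCS1 (chromosome 5, 43287470 to 43313512) makes HMG-CoA, the precursor of mevalonate. It was at 23.3, 26.1 and 24.7 CPM in KMT2D-WT and 41.4, 28.4, 40.2 and 30.99 CPM in KMT2D-KO cells with glucose, with no overlap (log2 fold change 0.53, SE 0.15, adjusted p = 0.031). After glucose deprivation it was at 26.98, 36.4 and 35.9 and 33.97, 29.7, 47.4 and 46.5 CPM (log2 fold change 0.30, SE 0.086, adjusted p = 0.0233), and the genotypes overlapped across experiments. The call was lost in 4 of the 7 fits that left out 1 library with glucose and in 5 of 7 without, and under library-size scaling the difference without glucose was 0.049. MVK, which phosphorylates mevalonate, was at 54.1, 34.2 and 31.9 CPM in KMT2D-WT and 25.3, 32.3, 18.1 and 22.7 CPM in KMT2D-KO cells with glucose (log2 fold change -0.78, SE 0.13, adjusted p = 0.00252). In the -Glc libraries it was at 48.9, 33.9 and 33.8 and 35.4, 29.4, 24.6 and 24.6 CPM (log2 fold change -0.53, SE 0.10, adjusted p = 0.00387). Within each experiment each KMT2D-KO library of MVK lay below the KMT2D-WT libraries, in both conditions.

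ACAT2, the cytosolic thiolase that joins 2 acetyl-CoA, was lower in KMT2D-KO cells with glucose, at 37.6, 24.8, 28.3 and 20.3 against 50.2, 36.97 and 38.2 CPM (log2 fold change -0.65, SE 0.16, adjusted p = 0.018). In glucose-deprived cells it was at 51.7, 48.3 and 50.2 CPM in KMT2D-WT and 57.7, 31.01, 27.1 and 32.5 CPM in KMT2D-KO cells, where the KO1 library of experiment 1 lay above each KMT2D-WT library and the other 3 below (log2 fold change -0.54, SE 0.25, adjusted p = 0.107). MVD, which decarboxylates mevalonate diphosphate, was higher in KMT2D-KO cells without glucose, at 75.7, 59.1, 55.3 and 58.4 against 56.4, 42.5 and 40.96 CPM (log2 fold change 0.35, SE 0.11, adjusted p = 0.0359). With glucose its difference was 0.06 ± 0.088 (SE). PMVK, IDI1 and FDPS, the remaining steps up to farnesyl diphosphate, were called in neither condition, with differences of 0.084, 0.28 and 0.086 with glucose and -0.014, 0.0087 and 0.13 without. IDI1 and FDPS have named pseudogenes in the annotation, so their reads may be split.

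From squalene on, the enzymes of the sterol route differed in direction. SQLE, the squalene epoxidase, was at 65.7, 71.9 and 76.6 CPM in KMT2D-WT and 95.2, 74.1, 104 and 88.4 CPM in KMT2D-KO cells with glucose (log2 fold change 0.37, SE 0.11, adjusted p = 0.032). Without glucose it was at 60.4, 74.6 and 79.9 and 59.3, 48.2, 65.5 and 64.6 CPM, with the difference turned to -0.23 and not called (adjusted p = 0.107). LSS, which cyclises the epoxide to lanosterol, was also higher with glucose, at 83.3, 94.8, 64.3 and 79.2 against 70.6, 52.8 and 50.7 CPM (log2 fold change 0.42, SE 0.10, adjusted p = 0.0145). Within each experiment the KMT2D-KO libraries of LSS lay above the KMT2D-WT libraries with glucose. Without glucose LSS was at 92.2, 69.7 and 63.7 CPM in KMT2D-WT and 57.7, 88.8, 70.7 and 66.7 CPM in KMT2D-KO cells, and the genotypes overlapped (log2 fold change -0.13, SE 0.14, adjusted p = 0.466).

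TM7SF2, a sterol C14 reductase, was lower in KMT2D-KO cells in both conditions. It was at 8.14, 7.77 and 8.46 CPM in KMT2D-WT and 6.27, 4.02, 3.22 and 4.62 CPM in KMT2D-KO cells with glucose (log2 fold change -0.90, SE 0.21, adjusted p = 0.013). After glucose deprivation it was at 7.44, 6.61 and 6.24 and 4.45, 4.65, 2.89 and 3.18 CPM (log2 fold change -0.95, SE 0.15, adjusted p = 0.00212). The groups did not overlap in either condition, and this was the largest fall with glucose of the 31 genes. MSMO1 was lower in KMT2D-KO cells without glucose, at 11.1, 9.31, 24.5 and 25.6 CPM (log2 fold change -0.49, SE 0.11, adjusted p = 0.00857), and was at 10.8, 8.13, 28.2 and 24.95 CPM with glucose (difference -0.26, not called). EBP, a sterol isomerase, was higher without glucose, at 92.02, 84.9, 63.97 and 66.9 against 63.3, 43.8 and 44.7 CPM with no overlap (log2 fold change 0.51, SE 0.075, adjusted p = 0.00152). With glucose EBP was at 65.2, 28.1 and 31.7 CPM in KMT2D-WT and 67.1, 75.2, 28.8 and 34.9 CPM in KMT2D-KO cells, a difference of 0.11 ± 0.10 (SE).

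DHCR7 was higher in KMT2D-KO cells without glucose, at 316, 252, 222 and 224 against 232, 176 and 164 CPM (log2 fold change 0.33, SE 0.10, adjusted p = 0.033), and differed by 0.14 with glucose. The DHCR7 call was kept in 2 of the 7 fits that left out 1 library. So were the calls of MVD without glucose and of SQLE with glucose. CYP51A1, the lanosterol demethylase, was at 8.43, 3.73 and 4.44 CPM in KMT2D-WT and 10.3, 14.5, 6.83 and 5.86 CPM in KMT2D-KO cells without glucose (log2 fold change 0.58, SE 0.15, adjusted p = 0.0171), counted on the small part of its exons that no other gene shares. FDFT1, NSDHL, HSD17B7 and SC5D were called in neither condition. The differences of FDFT1, HSD17B7 and SC5D were 0.23, 0.20 and 0.38 with glucose and 0.32, 0.21 and 0.085 without. NSDHL, a sterol dehydrogenase, differed by 0.31 and 0.27, and its lines lay apart. With glucose it was at 76.2, 51.1, 59.6 and 38.2 CPM in KMT2D-KO and 52.4, 39.5 and 39.2 CPM in KMT2D-WT cells, so that KO1 was above and KO2 near the KMT2D-WT level of the same experiment. In experiment 1 without glucose KO1 was at 115 CPM and KO2 at 60.1 CPM, against 60.7 CPM in KMT2D-WT cells.

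The 2 enzymes that supply acetyl-CoA parted with glucose. ACSS2, which makes acetyl-CoA from acetate, was at 90.2, 86.9 and 80.4 CPM in KMT2D-WT and 64.5, 55.5, 63.1 and 57.01 CPM in KMT2D-KO cells (log2 fold change -0.52, SE 0.09, adjusted p = 0.00349), with no overlap. In the -Glc libraries it was at 87.5, 72.3 and 67.8 and 98.3, 75.1, 76.6 and 71.2 CPM, a difference of 0.025 ± 0.12 (SE) that was not called. ACLY, which makes acetyl-CoA from citrate, differed by -0.0098 ± 0.073 (SE) with glucose and by -0.051 ± 0.078 without, and its levels lay between 233 and 318 CPM in the 14 libraries.

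In the fatty acid arm, ACACA was the gene lower in KMT2D-KO cells in both conditions. ACACA (chromosome 17, 37084992 to 37406836) carboxylates acetyl-CoA to malonyl-CoA, the committed step. It was at 159.8, 148 and 165 CPM in KMT2D-WT and 130.3, 117, 108 and 121 CPM in KMT2D-KO cells with glucose (log2 fold change -0.41, SE 0.082, adjusted p = 0.00672). In glucose-deprived cells it was at 141, 144 and 139 and 70.9, 99.4, 102 and 103 CPM (log2 fold change -0.59, SE 0.11, adjusted p = 0.00366). The genotypes did not overlap in either condition, and the call was kept in each fit that left out 1 library. FASN, the fatty acid synthase, was at 568, 463 and 467 CPM in KMT2D-WT and 512, 505, 374 and 456 CPM in KMT2D-KO cells with glucose and was not called (log2 fold change -0.16, SE 0.082, adjusted p = 0.212). Without glucose it was at 608, 484 and 480.0 and 265, 453, 380.1 and 372 CPM, with no overlap and the KO1 library of experiment 1 lowest (log2 fold change -0.54, SE 0.16, adjusted p = 0.0278). The FASN call without glucose was kept in 2 of the 7 fits that left out 1 library.

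SCD, which makes monounsaturated fatty acids, was at 123, 61.7 and 117 CPM in KMT2D-WT and 132, 83.8, 64.97 and 59.95 CPM in KMT2D-KO cells with glucose. WT1 lay at about the level of the 2 KMT2D-KO libraries of its experiment and WT2 above them, and SCD was not called (log2 fold change -0.38, SE 0.22, adjusted p = 0.258). After glucose deprivation it was at 122, 157 and 151 and 109.5, 88.2, 119 and 120.2 CPM with no overlap (log2 fold change -0.36, SE 0.10, adjusted p = 0.0255). The SCD call was kept in 2 of the 7 fits that left out 1 library. ELOVL6, which elongates palmitate, was higher in KMT2D-KO cells with glucose, at 38.2, 26.7, 48.3 and 46.2 against 19.2, 29.7 and 33.2 CPM (log2 fold change 0.66, SE 0.13, adjusted p = 0.00654). In the -Glc libraries it was at 15.01, 20.8 and 20.3 CPM in KMT2D-WT and 35.4, 14.7, 23.9 and 22.6 CPM in KMT2D-KO cells, with KO1 of experiment 1 above the rest (log2 fold change 0.38, SE 0.32, adjusted p = 0.354).

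The desaturases FADS1 and FADS2, which make polyunsaturated fatty acids, overlap on opposite strands of chromosome 11 (FADS1 from 61799627 to 61829318, FADS2 from 61792980 to 61867354). FADS1 was at 64.1, 78.9 and 76.99 CPM in KMT2D-WT and 114, 113, 149 and 149 CPM in KMT2D-KO cells without glucose. Each KMT2D-KO library lay above each KMT2D-WT library, and FADS1 had the largest rise of the 31 genes (log2 fold change 0.87, SE 0.063, adjusted p = 0.000105). The difference was 0.82 in experiment 1 alone and 0.89 in experiment 2 alone. With glucose FADS1 was at 79.9, 99.1 and 93.6 and 88.2, 96.9, 102 and 125 CPM and was not called (log2 fold change 0.23, SE 0.093, adjusted p = 0.105). FADS2 was at 60.2, 51.6 and 52.2 CPM in KMT2D-WT and 72.1, 66.4, 64.01 and 66.3 CPM in KMT2D-KO cells without glucose (log2 fold change 0.26, SE 0.075, adjusted p = 0.0244), and differed by -0.051 with glucose. Its call without glucose was lost in 5 of the 7 fits that left out 1 library.

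LPIN1, a phosphatidate phosphatase of glycerolipid synthesis, split by line. With glucose it was at 27.5, 27.1 and 25.8 CPM in KMT2D-WT and 30.8, 10.99, 23.3 and 8.5 CPM in KMT2D-KO cells, so KO1 was near the KMT2D-WT level and KO2 far below it. The KO1 to KO2 ratio was 2.81 in experiment 1 and 2.75 in experiment 2. It was 2.76 in experiment 1 without glucose, and LPIN1 was the only member whose lines were more than 1.5-fold apart in the same direction in these 3 settings. Without glucose LPIN1 was at 30.3, 29.8 and 26.3 CPM in KMT2D-WT and 27.4, 9.93, 10.2 and 9.21 CPM in KMT2D-KO cells. Both libraries of experiment 2, labelled KO1 and KO2, were at the KO2 level, as for the 19 genes above. The call without glucose (log2 fold change -1.22, SE 0.37, adjusted p = 0.031) therefore averages 1 high and 3 low libraries, while the same difference with glucose was not called (log2 fold change -0.60, SE 0.39, adjusted p = 0.307).

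The glucose comparison asks how the genes responded to 6 h of deprivation. In KMT2D-WT cells 5 of the 31 genes were higher without glucose (HMGCS1, FDPS, LSS, INSIG1 and SREBF2) and 3 were lower (HSD17B7, ELOVL6 and FADS1), against 7.15% and 7.58% of 17227 genes. The 5 that rose all belong to the sterol arm, which holds 21 of the 31 genes and whose median was 0.20 against 0.01 over all genes. Within experiment 1, over the 3 lines, the sterol median was 0.098 against -0.021 over all genes. There HMGCS1, FDPS, LSS, INSIG1 and SREBF2 differed by -0.025, 0.037, -0.10, 0.31 and 0.16, none called. In KMT2D-KO cells 5 were higher (ACSS2, MVD, EBP, FADS1 and SREBF1) and 1 was lower (SQLE), against 14% and 16% of 16057 genes. The sterol arm's median there was 0.18 and that of all genes 0.0049. In experiment 2 both comparisons set libraries counted by both mates against libraries counted by single reads. In KMT2D-KO cells of experiment 2 the mix of lines differed too, because the library labelled KO1 without glucose lay near KO2.

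Experiment 1, where the 6 libraries were counted alike, gave none of the 31 genes in a fit with the line as block, by edgeR or by DESeq2. By edgeR, 3 (SQLE, ACACA and ELOVL6) were at an unadjusted p under 0.05, against 3111 of all 16066 genes. Of 16066 genes, 0.479% were higher and 0.622% lower there, and TXNIP was among them (log2 fold change -3.46, SE 0.34, adjusted p = 0.00185). The calls in KMT2D-WT cells depend on the libraries of experiment 2. With the pairs summed none was called (10 unadjusted). None was called without WT1 or without WT2 of either glucose condition, and 19 were called without either library of experiment 1. With experiment left out, none was called in KMT2D-WT (3 unadjusted) or KMT2D-KO cells (6 unadjusted). DESeq2 called 18 in KMT2D-WT cells. In KMT2D-KO cells SQLE alone was called with the pairs summed, and also without KO1 or KO2 of experiment 2 in either glucose condition. The fits of 1 line alone and of experiment 1 alone called none of them in KMT2D-KO cells (KO1 4, KO2 5 and experiment 1 2 at an unadjusted p, where the KO1 fit includes the library labelled KO1 that lay near KO2), while experiment 2 alone called 12. Under library-size scaling the split became 3 higher and 3 lower in KMT2D-WT cells, and 0 higher and 5 lower in KMT2D-KO cells with a median of all genes of -0.20.

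SQLE fell in KMT2D-KO cells when glucose was removed, from 95.2, 74.1, 104 and 88.4 to 59.3, 48.2, 65.5 and 64.6 CPM, with no overlap (log2 fold change -0.63, SE 0.12, adjusted p = 0.00963). The fall was -0.69 in experiment 1 alone and -0.58 in experiment 2 alone. In KMT2D-WT cells SQLE differed by 0.0082 ± 0.062 (SE), from 65.7, 71.9 and 76.6 to 60.4, 74.6 and 79.9 CPM. In experiment 1 over the 3 lines it differed by -0.50 ± 0.17, and the 3 -Glc libraries lay below the 3 +Glc libraries. INSIG1 rose in KMT2D-WT cells (log2 fold change 0.55, SE 0.10, adjusted p = 0.0292) and differed by 0.094 ± 0.15 in KMT2D-KO cells. HMGCS1 rose in KMT2D-WT cells (log2 fold change 0.42, SE 0.084, adjusted p = 0.0356), from 23.3, 26.1 and 24.7 to 26.98, 36.4 and 35.9 CPM. HSD17B7, a 3-ketosteroid reductase with 2 named pseudogenes, fell from 8.9, 10.02 and 9.32 to 6.48, 5.42 and 5.99 CPM (log2 fold change -0.65, SE 0.13, adjusted p = 0.0356).

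FDPS, LSS and SREBF2 rose in KMT2D-WT cells by 0.22, 0.38 and 0.24 on the log2 scale. FDPS was at 111, 58.8 and 58.7 CPM with and 121, 69.5 and 70.4 CPM without glucose, and in each experiment the libraries without glucose lay above those with it. ELOVL6 was lower without glucose in KMT2D-WT cells (log2 fold change -0.52, SE 0.093, adjusted p = 0.0292), where the library of experiment 1 went from 19.2 to 15.01 CPM, WT1 from 29.7 to 20.8 CPM and WT2 from 33.2 to 20.3 CPM. In KMT2D-KO cells ELOVL6 differed by -0.72 ± 0.28 (SE) and was not called. SREBF1 rose in KMT2D-KO cells (log2 fold change 0.76, SE 0.24, adjusted p = 0.0461). This rise was 0.28 in experiment 1 alone, where KO1 went from 77.6 to 80.4 CPM and KO2 from 89.5 to 128 CPM, and 1.22 in experiment 2 alone, where the counting differed. EBP and MVD rose in KMT2D-KO cells by 0.66 and 0.45, and in experiment 1 alone by 0.27 and 0.33.

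**Figure D4:**
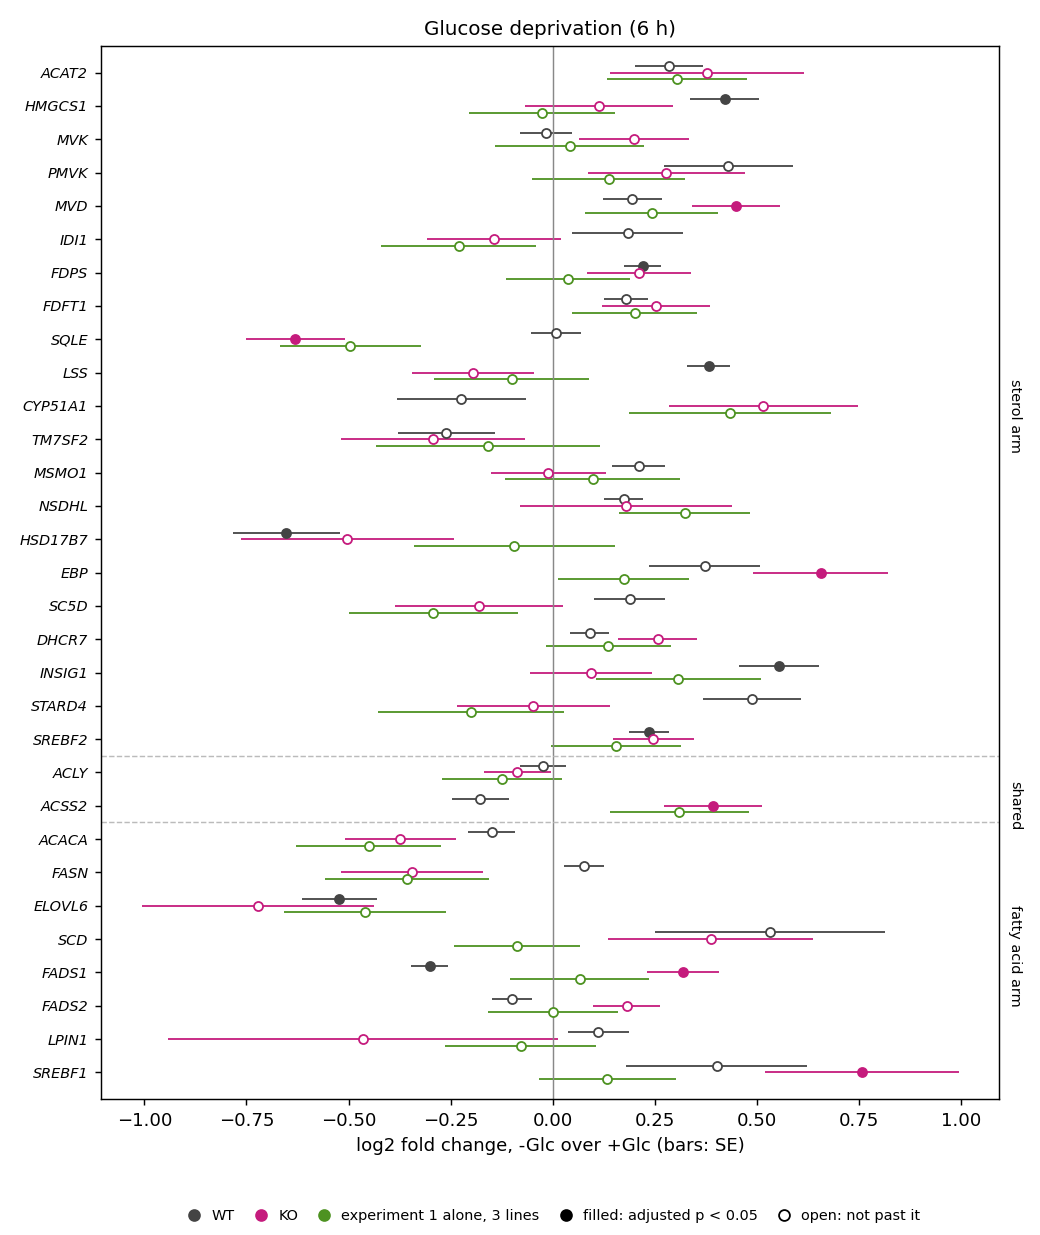
Log2 fold change without over with glucose for each of the 31 genes in KMT2D-WT cells (grey), KMT2D-KO cells (pink) and the 3 lines of experiment 1 alone (green), with bars of 1 SE and filled points for an adjusted p under 0.05. No green point is filled; SQLE lies left of 0 in KMT2D-KO cells and in experiment 1, and at 0.0082 in KMT2D-WT cells.

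Whether KMT2D loss acted differently with and without glucose was asked by an interaction term over the 14 libraries. In experiment 2 the library labelled KO1 without glucose lay near KO2. For KMT2D-KO cells, glucose and the mix of lines therefore cannot be told apart in that experiment. ACSS2, EBP and FADS1 had a more positive effect without glucose and SQLE a more negative one, against 4.73% and 6.54% of 18678 genes. FADS1 had the largest of these differences (log2 fold change 0.66, SE 0.12, adjusted p = 0.00547), and its levels fell without glucose in KMT2D-WT cells (-0.30) and rose in KMT2D-KO cells (0.32). SQLE differed by -0.58 (adjusted p = 0.0272), ACSS2 by 0.56 (adjusted p = 0.0275) and EBP by 0.43 (adjusted p = 0.0488). INSIG1, whose effect was -0.53 with and -1.004 without glucose, differed by -0.45 and was not called (adjusted p = 0.117). The FADS1 difference was called in each of the 14 fits that left out 1 library. The number called was 1 without any 1 of the 3 KMT2D-WT libraries without glucose, without the KMT2D-WT library of experiment 1 or WT1 with glucose, or without KO1 or KO2 of experiment 2 without glucose. It was 2 without WT2, KO1 of experiment 1 or KO1 of experiment 2 with glucose, and 9 and 7 without KO1 and KO2 of experiment 1 without glucose. Library-size scaling gave 1 higher and 4 lower, with a median of all genes of -0.23. With the pairs summed none of the 4 was called, with 6 of the 31 genes at an unadjusted p under 0.05, and with experiment left out of the fit none was called, with 3 unadjusted.

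The other genes of lipid metabolism were taken from 4 lists. Their counts are to be read against all genes, of which 13% were higher and 11.7% lower in KMT2D-KO cells with glucose, and 25.9% and 24.9% without. Of 8 genes that escort, cleave or degrade SREBPs and their partners, 1 was higher and 1 lower in KMT2D-KO cells with glucose, and 2 and 5 without. ERLIN1, which helps degrade sterol-regulated proteins, was lower in both conditions (-0.83 with and -1.001 without glucose), and RNF139, a ubiquitin ligase of the endoplasmic reticulum, was higher (0.56 and 1.06). Of 11 genes of sterol uptake, storage and efflux, none was higher and 2 were lower with glucose, and 1 and 2 without. ABCA1, the cholesterol exporter, was at 2.19, 0.8287 and 1.72 CPM in KMT2D-WT and 0.246, 0.581, 0.289 and 0.255 CPM in KMT2D-KO cells with glucose. In glucose-deprived cells it was at 4.13, 4.98 and 4.76 and 1.13, 1.91, 1.99 and 1.67 CPM. It was lower in KMT2D-KO cells in both conditions (-2.26 and -1.44) and higher without glucose in both genotypes (1.61 in KMT2D-WT and 2.30 in KMT2D-KO cells). Its levels in KMT2D-KO cells with glucose, 0.581 CPM or less, rest on few counts. Within experiment 1 none of these 11 genes was called for glucose.

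Of 25 genes of elongation, activation and glycerolipid synthesis, 6 were higher and 4 lower in KMT2D-KO cells with glucose, and 12 and 8 without. SLC25A1, the mitochondrial citrate carrier, and ACACB, the second acetyl-CoA carboxylase, were called lower in both conditions. With glucose they differed by -0.94 and -0.92. DGAT1, which makes triglycerides, was higher in both conditions (0.96 and 1.07). ELOVL7, an elongase, was called lower in both conditions, and its difference without glucose was -1.59. Of 13 genes of fatty acid oxidation, 3 were higher and 2 lower with glucose, and 6 and 3 without. CPT1A, which admits fatty acids to the mitochondrion, was at 100.1, 158 and 126 CPM in KMT2D-WT and 21.1, 23.3, 36.8 and 49.8 CPM in KMT2D-KO cells with glucose, with no overlap (log2 fold change -1.89, SE 0.14, adjusted p = 6.96e-05). Without glucose it was at 100.1, 102 and 99.1 and 34.2, 39.5, 45.6 and 43.2 CPM (log2 fold change -1.30, SE 0.075, adjusted p = 5.65e-05). ECI1, an enzyme for unsaturated fatty acids, was higher in KMT2D-KO cells in both conditions (0.70 and 1.12).

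The same lists were counted for glucose deprivation, with the shares over all genes given above. In KMT2D-WT cells 2 SREBP-handling genes, 2 of 10 sterol transport genes tested (NPC2 and ABCA1), 2 of the elongation and glycerolipid list and 1 of fatty acid oxidation were higher, and 4 of the elongation and glycerolipid list were lower. In KMT2D-KO cells 2, 3, 2 and 4 genes of the same lists were higher and 1, 0, 2 and 2 were lower. The KMT2D-KO effect differed between glucose conditions in 2, 2, 2 and 0 genes upward and 1, 0, 3 and 0 downward.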

How the data were processed

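RNA of SCC23 cells was sequenced in 14 libraries, grouped by the genotype, glucose and experiment in their labels. Per the study's methods and the file headers, the authors mapped reads to GRCh38 with HISAT2 and counted uniquely mapped reads (primary alignments) per gene name with featureCounts 2.0.3 on Ensembl 102, without strand and without counting reads that lie on several genes. The deposited values are raw counts. Depth was 15669154 to 62968057 counts per library, and the lowest member count was 61 (TM7SF2). Counting error is a large part of the difference within the 2 close pairs, and a small part in the other pairs.

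The quasi-likelihood test of edgeR 4.0.16 (R 4.3.3) was run on the counts after TMM scaling (genes kept by filterByExpr at a minimum of 10 counts, two-sided p, Benjamini-Hochberg over all genes tested, adjusted p under 0.05), with experiment as a covariate. The study's methods name DESeq2. Libraries of 1 experiment deviate together (the experiment difference of KMT2D-WT and KMT2D-KO cells had correlations of 0.947 with and 0.871 without glucose), and experiment, given in the labels, is the replicate block. Fits within experiment 1 used the line as block. Levels are CPM with TMM factors of all 14 libraries. Alternatives were DESeq2 1.42.0, RLE and library-size scaling, no filter, no block, halved counts, summed pairs, single lines, single experiments, 1 fit of all libraries and leaving out each library. The fits were first tested on simulated data. Per-library values were printed for members called in at least 1 comparison and 7 regulators and enzymes fixed by name. For genes of the 4 other lists the rule allowed at most 4 called genes per list and comparison, those with the largest change and a mean of at least 1 CPM, and not all were described. NSDHL was added after its values were seen. The members and lists were chosen with earlier results of these data known. Promoters of 27 members came from RefSeq, and ACAT2, FDFT1, SQLE and FASN had no entry in the table used.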

Additional observations from a re-analysis of the deposited data

Results flagged for a closer look

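The KMT2D-KO effect differed between glucose conditions in 4 genes by the test of the difference itself (edgeR, 14 libraries): ACSS2 (0.56, adjusted p = 0.0275), SQLE (-0.58, adjusted p = 0.0272), EBP (0.43, adjusted p = 0.0488) and FADS1 (0.66, adjusted p = 0.00547), each a difference of log2 fold changes without minus with glucose. In experiment 2 both mates were counted with glucose and single reads without, for both genotypes. The library of experiment 2 labelled KO1 without glucose lay near KO2, so the mix of KMT2D-KO lines also differed between glucose conditions.

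In KMT2D-KO cells without glucose, 1 library lay far from the other 3 in 4 genes. INSIG1 was at 14.98 CPM in KO1 of experiment 1 against 11.2 to 11.7 CPM in the others. ACACA was at 70.9 CPM in the same library against 99.4 to 103 CPM, and LPIN1 at 27.4 CPM against 9.21 to 10.2 CPM. SREBF2 was at 156 CPM in KO2 of experiment 1 against 122 to 126 CPM. Over the 62 sets of 4 KMT2D-KO libraries examined, 4 were past Dixon's limit for the gap over the range, and chance alone marks about 1 in 20. In this group both libraries of experiment 2 differ by a chi-square of 1.78 per gene, against 25.9 to 83.0 for KO1 and KO2 of 1 experiment elsewhere, and KO1 of experiment 1 is the only library whose expression is near KO1.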

How the results depend on the processing

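The 46 calls of members over the 6 comparisons kept their direction in all 841 alternative fits of them, and 497 of these stayed past the threshold while 344 did not. DESeq2 and RLE scaling kept each of the 46 calls. The numbers called below have no share of all genes beside them and are no result about the members. Leaving out the replicate block, that is experiment, lowered the number called from 11 to 0 with glucose and from 17 to 4 without for KMT2D-KO against KMT2D-WT cells, and to 0 for glucose in KMT2D-WT cells (from 8), in KMT2D-KO cells (from 6) and for the difference of the KMT2D-KO effect (from 4).

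Summing the close pairs gave 2 for KMT2D-KO against KMT2D-WT cells without glucose, 0 and 1 for glucose in KMT2D-WT and KMT2D-KO cells, and 0 for the difference of the KMT2D-KO effect. Leaving out both KMT2D-KO libraries of experiment 2 without glucose, chosen after seeing the data, gave 0 in each of the 3 comparisons that use them. Experiment 1 alone gave 0 with glucose, 0 without and 0 for glucose in KMT2D-KO cells. Experiment 2 alone gave 3 with glucose, 24 without, 19 for glucose in KMT2D-WT cells and 12 in KMT2D-KO cells. Either labelled line alone gave 0 for glucose in KMT2D-KO cells, and the KO1 fit includes the library labelled KO1 that lay near KO2. For glucose in KMT2D-WT cells, 13 were called with no filter and 18 by DESeq2. Leaving out 1 library gave 1 to 13 with glucose, 8 to 25 without, 0 to 19 for glucose in KMT2D-WT cells, 1 to 8 in KMT2D-KO cells and 1 to 9 for the difference. Within experiment 1 the glucose comparison gave 0 under each alternative run. The cause was not tested, except that summing or leaving out leaves fewer libraries.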
